A study of Rattus norvegicus with 15 samples.

Results

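The genes described here encode 8 enzymes of aromatic amino acid breakdown in the liver, 4 of the tyrosine route (Tat, Hpd, Hgd, Fah) and 4 of the kynurenine route of tryptophan (Tdo2, Kmo, Kynu, Haao). They were picked by symbol from the platform annotation, and 8 of 8 were found among 14506 measured genes, each on a single probe set. The choice was made with earlier results of these arrays known, in which Hgd, Fah and Kynu lay below DMSO, so every difference from DMSO given for these 8 genes is a description and is not offered as a test. The samples were 15 Affymetrix arrays of freshly isolated primary rat hepatocytes in perfused microfluidic biochips, 1 array per biochip: DMSO solvent for 24 h (n = 5), 10 µM flutamide for 24 h (n = 6) and 100 µM flutamide for 24 h (n = 4). Flutamide is a nonsteroidal antiandrogen. All groups shared an adhesion phase in serum-containing medium and then perfusion in a medium whose listed supplements were buffer, insulin-transferrin-selenium and antibiotics. Strain, sex, age and the number of animals are not given in the labels, so replicate spread may be technical. The biochips are numbered 10 to 16 and 20 to 27 in the sample titles. These are called number run 1 and number run 2 here, each holds every group. Their meaning is not given in the labels.

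In the liver, tyrosine is broken down in a chain. Tyrosine aminotransferase (Tat) makes 4-hydroxyphenylpyruvate, which 4-hydroxyphenylpyruvate dioxygenase (Hpd) turns into homogentisate. Homogentisate dioxygenase (Hgd) opens the ring, and fumarylacetoacetase (Fah) cuts the last intermediate into fumarate and acetoacetate. Tryptophan 2,3-dioxygenase (Tdo2) starts the kynurenine route, kynurenine 3-monooxygenase (Kmo) and kynureninase (Kynu) carry it on, and 3-hydroxyanthranilate dioxygenase (Haao) leads it towards quinolinate and NAD. Tat and Tdo2 are textbook glucocorticoid-induced genes of hepatocytes, and Kmo and Kynu are also expressed by macrophages.

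Promoters of 4 of these genes are shown, Hgd and Kynu because they had the most negative values against DMSO at 10 and 100 µM, and Tat and Tdo2 because their deviations from array to array were positively correlated. The deviations of Hpd, whose promoter is not shown, were correlated with both as well, and with Tdo2 as highly (r = 0.89) as those of Tat (r = 0.88). The sequences are RefSeq's, build GRCr8, 250 bases before to 50 after the start site used there, 5′ to 3′ on the gene's strand. Capitals mark matches on either strand to AGAACA (core of the glucocorticoid receptor element), GTTAAT (HNF1), AGTCCA (HNF4), CCAAT (the CCAAT box) or TATAAA (the TATA box). The windows are chr11:76643718-76644017 on the minus strand for Hgd, chr3:48188036-48188335 on the plus strand for Kynu, chr19:54856354-54856653 on the plus strand for Tat and chr2:169585537-169585836 on the minus strand for Tdo2.
Hgd: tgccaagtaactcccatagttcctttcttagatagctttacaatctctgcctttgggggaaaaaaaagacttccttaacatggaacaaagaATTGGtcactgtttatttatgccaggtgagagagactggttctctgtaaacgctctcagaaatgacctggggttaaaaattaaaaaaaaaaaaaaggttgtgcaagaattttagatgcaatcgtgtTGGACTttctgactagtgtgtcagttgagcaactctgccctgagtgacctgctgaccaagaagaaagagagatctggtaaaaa
Kynu: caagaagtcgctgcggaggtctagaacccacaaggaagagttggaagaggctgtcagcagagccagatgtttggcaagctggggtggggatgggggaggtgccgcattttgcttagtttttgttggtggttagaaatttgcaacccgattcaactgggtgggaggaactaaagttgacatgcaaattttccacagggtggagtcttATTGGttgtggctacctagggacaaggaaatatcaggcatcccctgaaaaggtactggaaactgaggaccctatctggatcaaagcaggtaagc
Tat: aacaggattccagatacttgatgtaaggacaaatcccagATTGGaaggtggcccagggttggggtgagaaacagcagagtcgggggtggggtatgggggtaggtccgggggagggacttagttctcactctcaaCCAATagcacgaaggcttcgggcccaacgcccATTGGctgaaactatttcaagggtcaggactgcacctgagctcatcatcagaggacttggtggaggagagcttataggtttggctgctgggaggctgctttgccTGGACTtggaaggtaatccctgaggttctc
Tdo2: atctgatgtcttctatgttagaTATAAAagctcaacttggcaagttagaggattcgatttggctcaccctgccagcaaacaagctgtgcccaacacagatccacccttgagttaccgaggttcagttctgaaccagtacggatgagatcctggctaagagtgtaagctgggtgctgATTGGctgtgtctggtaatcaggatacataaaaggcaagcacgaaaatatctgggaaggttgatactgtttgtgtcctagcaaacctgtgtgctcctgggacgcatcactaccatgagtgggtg
CCAAT was present in each of these 4 windows, with the reverse-strand match of Kynu beginning 44 bases before the start site, that of Tdo2 74 and that of Hgd 159 bases before it, and 3 matches in Tat. Over all 8 genes it was present in 5, against 37.5% of 33469 promoters of the same length. AGTCCA was present in 3 of 8 (Tat, Hgd and Kmo), against 14.1% of promoters, and in Kmo it overlapped the CCAAT match. AGAACA was present in Haao alone (20.7% of promoters), GTTAAT in Hpd alone (7.5%) and TATAAA in Tdo2 alone (14.2%). The TATAAA match of Tdo2 began 228 bases before the start site. A match of these letters is a description and not a site.

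Hepatocyte identity was checked on listed markers. All 13 measured hepatocyte markers had a mean above 5.45, the median over all probe sets on the log2 scale. All 5 measured endothelial markers and 6 of 7 measured lymphocyte markers lay below it. The same held for 7 of 10 stellate cell and 3 of 4 measured cholangiocyte markers. Of the Kupffer cell and macrophage markers, 5 of 15 measured lay below it and the rest above. Among the latter, Cd68 was at 7.18 to 10.50 and Cd14 at 8.75 to 10.11 over the 15 arrays. Array 23, at 10 µM, was least like the rest: its correlations had a median of 0.963, against 0.978 to 0.99 on the other 14, and its quality weight was the lowest (0.205). It had the highest mean log2 level of the Kupffer markers, 7.43, against 5.77 to 6.93 on the other 14 arrays. The main values at 10 µM are given below with and without it.

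Hgd was the tyrosine gene with the widest range. In number run 2 it was at 8.15, 7.65 and 7.97 in DMSO, at 6.34, 5.77 and 6.39 at 10 µM and at 6.93 and 6.33 at 100 µM (log2 levels). In number run 1 it was at 6.61 and 6.05 in DMSO, at 5.61, 6.34 and 6.26 at 10 µM and at 6.04 and 6.12 at 100 µM. The 3 DMSO arrays of run 2 were above every other array, and the groups overlapped in run 1. With the run as a block, the log2 difference from DMSO was -1.10 (SE 0.26) at 10 µM, a 2.14-fold lower level, and -0.86 (SE 0.29) at 100 µM. Within run 2 these differences were -1.76 (SE 0.23) at 10 µM and -1.29 (SE 0.26) at 100 µM, and within run 1 they were -0.26 (SE 0.25) and -0.26 (SE 0.28). Leaving out array 23 gave 10 µM values of -1.07 over both runs and -1.84 (SE 0.26) within run 2.

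Fah, the step after the Hgd product has been isomerised, followed the same layout in run 2. In run 2 it was at 7.61, 7.89 and 7.36 in DMSO, at 6.05, 6.90 and 6.77 at 10 µM and at 6.98 and 6.77 at 100 µM. In run 1 it was at 6.69 and 7.08 in DMSO, at 6.52, 6.60 and 6.60 at 10 µM and at 6.77 and 6.98 at 100 µM. Again the DMSO arrays of run 2 were the highest of all 15. In run 1, unlike Hgd, every 10 µM array lay below both DMSO arrays (12.2% of all genes had this layout). The 100 µM arrays overlapped DMSO in run 1. The log2 difference was -0.73 (SE 0.18) at 10 µM and -0.43 (SE 0.20) at 100 µM. Within run 2 it was -1.05 at 10 µM and -0.75 at 100 µM, and within run 1 it was -0.32 at 10 µM and -0.01 at 100 µM. Array 23 was the lowest of all for Fah, and without it the 10 µM values were -0.58 (SE 0.14) over both runs and -0.78 (SE 0.17) within run 2.

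Tat, the entry step, was close to level in DMSO and scattered under flutamide. It was at 10.62 to 10.88 over the 5 DMSO arrays (median 10.70), at 9.71 to 11.30 over the 6 arrays at 10 µM (median 10.34) and at 9.98, 11.02, 10.84 and 9.88 at 100 µM. The range at each dose took in the whole DMSO range. The log2 difference was -0.30 (SE 0.26) at 10 µM and -0.29 (SE 0.29) at 100 µM. Without array 23, the highest of all arrays for Tat, the value at 10 µM was -0.51, and without array 24, the lowest, it was -0.14. At 100 µM it was -0.49 without array 16 and -0.08 without array 27.

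Hpd, the second step, varied least. It was at 10.82 to 11.26 in DMSO (median 11.13), at 10.80 to 11.33 at 10 µM (median 11.06) and at 11.03, 11.17, 10.97 and 10.65 at 100 µM. Its SD over the 15 arrays was 0.182, against 0.196 for the median gene, while the SDs of the other 7 enzyme genes were 0.447 to 0.819. The log2 difference from DMSO was -0.04 (95% interval -0.28 to 0.19) at 10 µM, or -0.12 without array 23, and -0.14 (-0.40 to 0.12) at 100 µM.

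**Figure D1:**
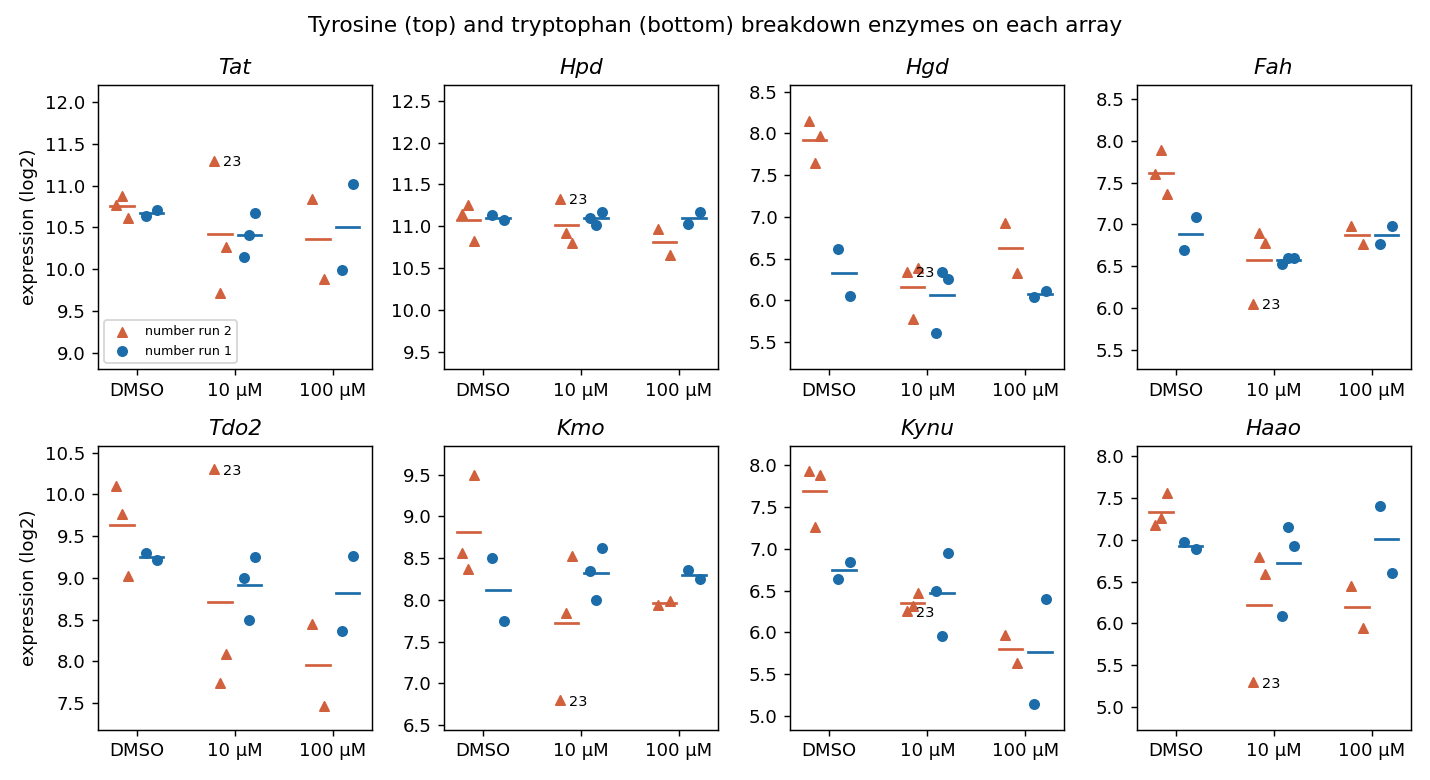
Log2 expression (vertical axis, each panel spanning the same number of log2 units) of the 8 enzyme genes in DMSO, 10 µM and 100 µM arrays (horizontal axis). Triangles are number run 2, circles number run 1, short lines the mean of each group within a run, and the label 23 marks the 10 µM array that stood apart. The run 2 DMSO triangles of Hgd lie at 7.65 to 8.15, above all other Hgd points.

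Kynu had the largest difference from DMSO of the 8 genes. In run 2 it was at 7.93, 7.27 and 7.89 in DMSO, at 6.25, 6.32 and 6.47 at 10 µM and at 5.97 and 5.63 at 100 µM. In run 1 it was at 6.64 and 6.85 in DMSO, at 6.50, 5.96 and 6.95 at 10 µM and at 5.14 and 6.40 at 100 µM. All 4 arrays at 100 µM lay below all 5 DMSO arrays. Kynu was the 1 of 8 genes with such a gap at 100 µM, against 0.931% of all genes, and 0 of 8 had it at 10 µM (0.221%, or 0.572% without array 23). In the upward direction 0 of 8 had it at 100 µM (1.13%) and 0 of 8 at 10 µM (0.414%, or 0.903% without array 23). The log2 difference was -1.50 (SE 0.29, 2.83-fold lower) at 100 µM and -0.88 (SE 0.26, 1.84-fold lower) at 10 µM. At 100 µM the Kynu value was -1.89 (SE 0.22) within run 2 and -0.97 (SE 0.44) within run 1, and at 10 µM it was -1.35 (SE 0.19) within run 2 and -0.28 (SE 0.40) within run 1. The 10 µM values without array 23 were -0.81 over both runs and -1.30 (SE 0.22) within run 2.

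Tdo2, the first and committing step of the kynurenine route, ranged over 2.84 log2 units, the widest of the 8. In run 2 it was at 10.10, 9.77 and 9.02 in DMSO, at 10.30, 7.74 and 8.09 at 10 µM and at 8.45 and 7.47 at 100 µM. In run 1 it was at 9.30 and 9.21 in DMSO, at 9.00, 8.49 and 9.25 at 10 µM and at 8.37 and 9.26 at 100 µM. The highest value of all came from array 23, and over both runs each dose overlapped DMSO. The log2 difference was -1.11 (SE 0.46) at 100 µM and -0.68 (SE 0.42) at 10 µM. Without array 23 the value at 10 µM was -1.06, and without array 24 it was -0.46.

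Kmo, the next oxidation of kynurenine, had values of opposite sign in the runs. In run 2 it was at 8.56, 8.37 and 9.49 in DMSO, at 6.80, 7.85 and 8.52 at 10 µM and at 7.94 and 7.99 at 100 µM. In run 1 it was at 8.49 and 7.75 in DMSO, at 8.35, 8.00 and 8.62 at 10 µM and at 8.36 and 8.25 at 100 µM. The 10 µM arrays overlapped DMSO in both runs, and the 100 µM arrays did so in run 1. The log2 difference was -1.08 (SE 0.45) within run 2 and 0.20 (SE 0.25) within run 1 at 10 µM, and -0.84 (SE 0.50) within run 2 and 0.18 (SE 0.28) within run 1 at 100 µM. Without array 23, the lowest of all arrays for Kmo, the run 2 value at 10 µM was -0.62 (SE 0.35). Over all arrays it was -0.52 (SE 0.32) at 10 µM, or -0.25 without array 23, and -0.41 (SE 0.36) at 100 µM, or -0.16 without DMSO array 22.

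Haao, the ring-opening step before quinolinate, was at 7.18, 7.26 and 7.56 in DMSO, at 5.29, 6.79 and 6.59 at 10 µM and at 6.45 and 5.94 at 100 µM in run 2. In run 1 it was at 6.97 and 6.89 in DMSO, at 6.09, 7.16 and 6.92 at 10 µM and at 7.41 and 6.60 at 100 µM. Every flutamide array of run 2 lay below every DMSO array of run 2, and in run 1 the groups overlapped. The log2 difference was -0.73 (SE 0.30) at 10 µM, or -0.48 without array 23, and -0.60 (SE 0.34) at 100 µM, which ran from -0.83 to -0.40 as single arrays were left out.

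Read together, 8 of 8 enzyme genes had a negative difference from DMSO at each dose, with a median log2 difference of -0.71 at 10 µM and -0.51 at 100 µM. Over all genes, 50.9% were lower at 10 µM (median 0.00) and 44.3% at 100 µM (median 0.02). Both comparisons use the same DMSO arrays. Limma called 0 of 8 enzyme genes and 0 of 14506 genes (0%) at either dose at an adjusted p of 0.05, with 1109 genes at 10 µM and 993 at 100 µM at an unadjusted p under 0.05. The median over the 8 genes was -1.06 within run 2 and -0.26 within run 1 at 10 µM, and -0.99 within run 2 and -0.09 within run 1 at 100 µM. Leaving out array 23, the median at 10 µM was -0.55 over both runs and -0.78 within run 2. Within run 2, 4 of 8 genes (Hgd, Fah, Kynu and Haao) had every 10 µM array below every DMSO array, against 8.53% of all genes, and 6 of 8 (these and Tdo2 and Kmo) had every 100 µM array below, against 14.4%. Without array 23, 6 of 8 genes had that layout at 10 µM, with Tat and Tdo2 added, against 14.5% of all genes. Within run 1 this held for Fah at 10 µM (12.2% of all genes) and for Kynu at 100 µM (12.1%). In a bulk sample, fewer cells of a type and less RNA per cell cannot be told apart.

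**Figure D2:**
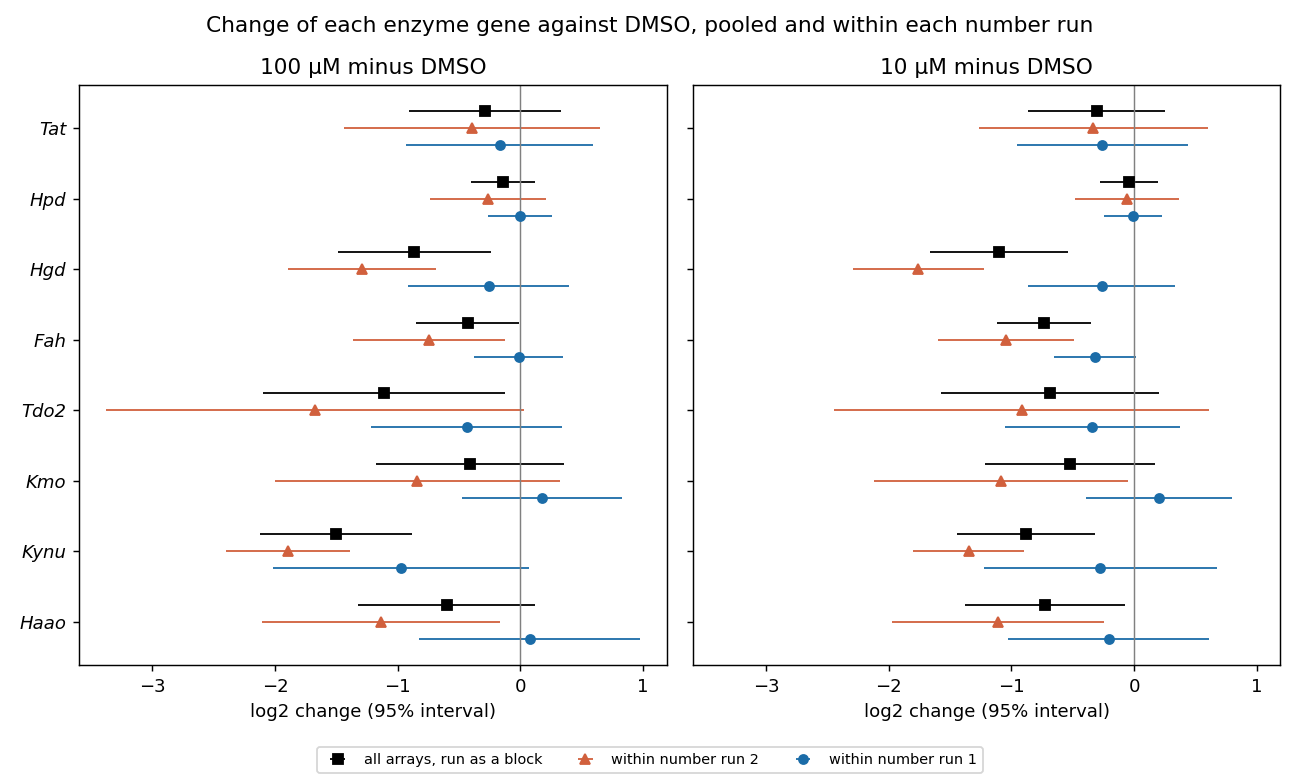
Log2 difference from DMSO (horizontal axis) with its 95% interval for each gene (vertical axis), at 100 µM (left) and 10 µM (right). Squares use all arrays with the number run as a block, triangles number run 2 alone and circles number run 1 alone. For Hgd at 10 µM the run 2 value is -1.76 and the run 1 value -0.26.

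The number runs were then compared directly. Within DMSO alone, Hgd was higher in run 2 than in run 1 by 1.59 (SE 0.22), Kynu by 0.95 (SE 0.22), Fah by 0.73 (SE 0.19) and Haao by 0.40 (SE 0.14). For these 4 genes no DMSO array of run 2 overlapped one of run 1, and 15.6% of all genes had that layout in that direction with 3 against 2 arrays. None of the 8 was called in limma within DMSO (0 of 8, lowest adjusted p = 0.0778, for Hgd), where 16 of 14506 genes were (0.11%). At an unadjusted p under 0.05 were 4 of the 8 and 1943 of all 14506 genes. At 10 µM 0 of 8 genes had run 2 arrays all above run 1 (8.27% of all genes), and without array 23 Fah did (1 of 8, 11.8% of all genes). Hgd averaged 6.17 ± 0.34 at 10 µM in run 2 and 6.07 ± 0.40 in run 1 (SD, n = 3 each), and Kynu averaged 6.35 ± 0.11 in run 2 and 6.47 ± 0.49 in run 1. Kmo averaged 7.72 ± 0.87 at 10 µM in run 2 and 8.32 ± 0.31 in run 1, and Haao 6.23 ± 0.81 in run 2 and 6.72 ± 0.56 in run 1. Leaving out array 23, the run 2 means were 8.19 for Kmo and 6.69 for Haao (n = 2). The run means of Tdo2 at 10 µM were 8.71 in run 2 and 8.92 in run 1, with 7.92 in run 2 without array 23. Those of Tat were 10.42 in run 2 and 10.41 in run 1, with 9.99 in run 2 without array 23. Over all groups the run coefficient of Hgd was 0.70 (SE 0.23, adjusted p = 0.224 by limma). For this coefficient 0 of 8 genes were called, where 79 of 14506 were (0.545%). At an unadjusted p under 0.05 were 1 of the 8 and 1590 of all genes. The Hgd coefficient was 0.73 without array 23, and 129 genes were then called.

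Whether the flutamide difference itself differed between runs was tested as an interaction across all genes. For 10 µM minus DMSO, run 2 minus run 1, the value was -1.49 (SE 0.37) for Hgd, -1.28 (SE 0.59) for Kmo, -1.07 (SE 0.47) for Kynu, -0.90 (SE 0.57) for Haao and -0.73 (SE 0.31) for Fah. For the other 3 it was -0.58 (SE 0.84) for Tdo2, -0.07 for Tat and -0.05 for Hpd. The order of the genes depended on single arrays. Without array 23 the value was -1.37 (SE 0.53) for Tdo2, -0.51 for Tat and -0.21 for Hpd, against -0.82 (SE 0.47) for Kmo, -0.47 (SE 0.23) for Fah and -0.43 (SE 0.43) for Haao, while Hgd (-1.58) and Kynu (-1.02) moved less. Without array 24 Tdo2 was at -0.09 and Tat at 0.28. Limma called 0 of 8 (lowest adjusted p = 0.241, for Hgd), and 6 of 14506 genes (0.0414%). At an unadjusted p under 0.05 were 3 of the 8 and 1485 of all genes. At 100 µM all 8 values were negative, from -0.22 for Tat to -1.24 for Tdo2. Both interactions subtract the same run difference of the DMSO arrays, so their signs are not independent. In that DMSO difference 7 of the 8 genes were higher in run 2. Over all genes, 46.9% of the values were negative at 10 µM and 51.1% at 100 µM. Tdo2 was at -0.74 there without array 27, Kynu at -0.29 without array 16, against -0.92 with all arrays, and Tat at 0.29 without array 16. By limma 0 of the 8 genes passed at 100 µM, against 1 of all 14506 genes (0.00689%). An unadjusted p under 0.05 was reached by 1 of the 8 and by 882 of all genes. The 95% interval of the Hgd value at 10 µM was -2.30 to -0.68. The split of Hgd and Kynu by run was known when the genes were chosen.

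The doses were compared with each other, a contrast that sets neither dose against DMSO. The DMSO arrays still entered the fit, through the run block and the estimate of spread. Kynu was lower at 100 µM than at 10 µM by a log2 value of -0.62 (95% interval -1.22 to -0.03), at 5.14 to 6.40 at 100 µM and 5.96 to 6.95 at 10 µM. Tdo2 was at -0.43 (-1.38 to 0.52), and Fah lay on the other side at 0.30 (-0.10 to 0.71). The other 5 genes were at -0.10 to 0.24. Limma called 0 of 8 (adjusted p from 0.930 to 0.995) and 0 of 14506 genes (0%), with 1 of the 8 (Kynu) and 723 of all genes at an unadjusted p under 0.05. No gene of the 8 had all its 100 µM arrays below (0 of 8, 0.324% of all genes) or above (0 of 8, 0.503%) its 10 µM arrays. Without array 23 the value was -0.08 for Tdo2, 0.16 for Fah, -0.69 for Kynu and -0.14 to 0.21 for the other 5, and the shares of all genes without overlap were 0.545% below and 1.45% above, again with 0 of 8. The Tdo2 value was -0.13 without 100 µM array 27 and -0.71 without array 16, and the Kynu value was -0.90 without array 16.

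Array 23 split the enzyme genes. Tat (11.30), Hpd (11.33) and Tdo2 (10.30) were higher on it than on any of the other 14 arrays. Fah (6.05), Kmo (6.80) and Haao (5.29) were lower on it than on any other array. Hgd (6.34) and Kynu (6.25) were within the range of the other 10 µM arrays, 5.61 to 6.39 and 5.96 to 6.95. The list of the glucocorticoid receptor and its response genes had its highest mean on this array as well, 7.71 against 6.86 to 7.52 on the other 14, as did the hepatocyte markers (10.95 against 10.21 to 10.77), the stellate cell markers (5.63 against 5.23 to 5.42) and the endothelial markers (5.07 against 4.36 to 4.94), beside the Kupffer markers given above. Other lists had their lowest mean of all arrays on array 23. These were the other listed tyrosine and tetrahydrobiopterin genes (7.09 against 7.13 to 7.42 on the other 14 arrays), the other listed tryptophan genes (5.86 against 5.88 to 6.48) and the cholangiocyte markers (5.68 against 5.71 to 5.98). The part of these lists in the enzyme values was not tested.

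Co-variation from array to array was measured on deviations from the mean of each group within each run, which removes dose and run. The deviations of Tat and Tdo2 over the 15 arrays had Pearson's r = 0.881 (exact permutation p = 0.0081) and Spearman's rho = 0.839 (exact permutation p = 0.0133), 2-sided. Those of Hpd and Tdo2 were at r = 0.89 (exact permutation p = 0.00926) and rho = 0.921 (exact permutation p = 0.00752), and Tat and Hpd at r = 0.745 (exact permutation p = 0.0307) and rho = 0.775 (exact permutation p = 0.011). Arrays were permuted within group and run in all 1728 ways, and the smallest p this allows is 0.000579. Of 28 pairs, 0 passed after Benjamini-Hochberg adjustment (lowest adjusted p = 0.130 for r and 0.124 for rho). Leaving out the 2 arrays farthest from the median gave r = 0.749 for Tat and Tdo2, 0.833 for Hpd and Tdo2 and 0.643 for Tat and Hpd, and leaving out array 23 gave 0.768, 0.802 and 0.532.

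For Hgd and Kynu, the levels and the deviations gave different values. Their levels over the 15 arrays correlated at r = 0.706 (rho 0.443), while their deviations within group and run correlated at r = 0.177 (exact permutation p = 0.556) and rho = 0.189 (exact permutation p = 0.525). For Hgd and Fah the levels were at r = 0.727 (rho 0.479) and the deviations at r = -0.315 (exact permutation p = 0.374) and rho = -0.175 (exact permutation p = 0.576). The deviations of Tdo2 and Haao were at r = -0.735 (exact permutation p = 0.0608) and rho = -0.593 (exact permutation p = 0.0932), and r = -0.360 without array 23. Over all 28 pairs, 17 deviation correlations were positive and 11 negative, with a median of 0.146, and without array 23 the counts were 18 and 10, with a median of 0.182. The points share arrays, normalization and the small number of arrays per group.

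**Figure D3:**
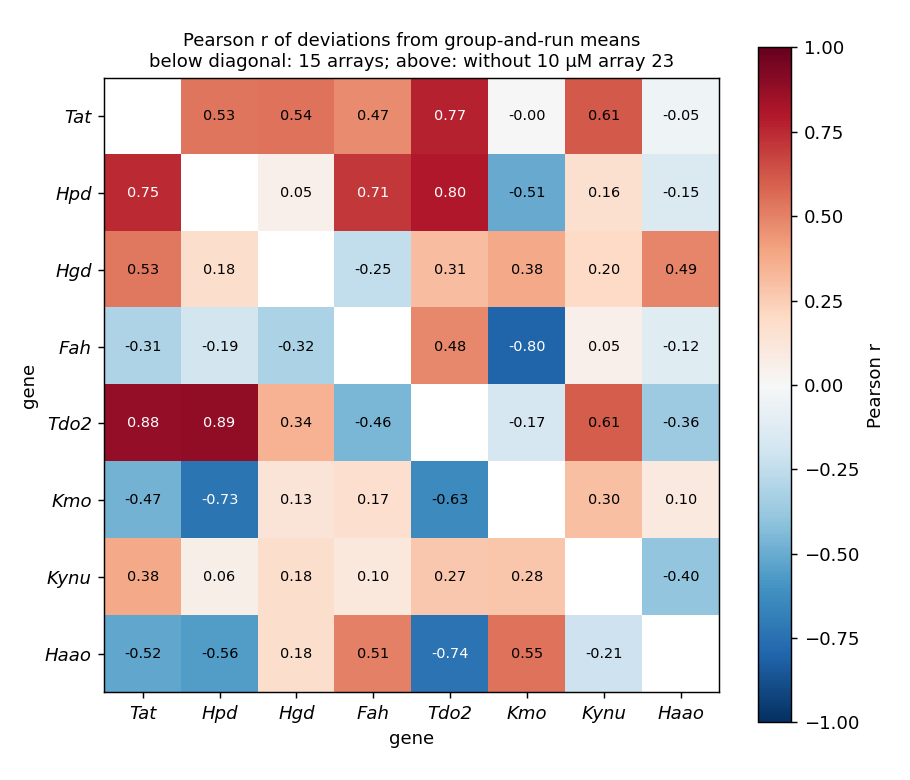
Pearson correlation of deviations from group-and-run means for each pair of the 8 genes (both axes), over 15 arrays below the diagonal and without 10 µM array 23 above it. Tat, Hpd and Tdo2 form the block of high positive values (0.75 to 0.89 over 15 arrays), and several negative values of Kmo and Haao with these genes move towards 0 above the diagonal.

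The genes most like each enzyme gene over the 15 arrays were listed by Pearson correlation of levels, chosen for that likeness and so with no test. Cyp2c22, a cytochrome P450, was nearest to Tdo2 (r = 0.967, rho 0.932, r = 0.958 without array 23), ahead of Aldh9a1, an aldehyde dehydrogenase (r = 0.916), and second nearest to Tat (r = 0.880, rho 0.807), behind Or5an9, annotated as an olfactory receptor (r = 0.899). Cyp2c22 itself was at 9.46 to 12.32 over the 10 µM arrays, with array 23 highest, and at 10.98 to 12.05 in DMSO. Hgd was nearest to Atf5, a transcription factor of the ATF family (r = 0.963, rho 0.775), and to Baat, which conjugates bile acids (r = 0.928, rho 0.778). Kynu was nearest to Il33, a cytokine (r = 0.934, rho 0.875), and Ttpa, the alpha-tocopherol transfer protein (r = 0.911). Fah was nearest to Cavin3, a caveolar coat protein (r = 0.928), and Mid1ip1, a regulator of lipid synthesis (r = 0.922). Kmo (Shfl 0.866, Ephx1 0.854), Haao (Rrp15 0.880, Htra2 0.874) and Hpd (Vsig4, a Kupffer cell marker, 0.870, Nrbp2 0.867) had nearest genes at lower r. Leaving out the 2 arrays farthest from the median of Kmo gave 0.721 for Shfl and 0.534 for Ephx1. Without array 23 Kmo was at 0.730 with Shfl and 0.704 with Ephx1, and Haao at 0.774 with Rrp15 and 0.820 with Htra2. Tat was then at 0.867 with Or5an9 and 0.844 with Cyp2c22, Hpd at 0.836 with Vsig4 and 0.841 with Nrbp2, and the pairs of Hgd, Kynu and Fah and that of Tdo2 with Aldh9a1 at 0.905 to 0.964.

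Other genes of the same pathways were taken from a textbook list. Of 13 measured other genes of tryptophan use, 10 were lower and 3 higher than in DMSO at each dose, with a median of -0.22 at 10 µM and -0.22 at 100 µM, and limma called 0 at either dose (3 at 10 µM and 4 at 100 µM at an unadjusted p under 0.05). Qprt, which takes quinolinate into NAD synthesis, was at -0.69 (SE 0.15) at 10 µM and -0.50 (SE 0.16) at 100 µM. Kyat3, a kynurenine aminotransferase, was at -0.22 (SE 0.11) at 10 µM and -0.44 (SE 0.12) at 100 µM. Within run 2 alone 11 of the 13 were lower at 10 µM (median -0.28), and within run 1 alone 6 were (median 0.02). The median of these 13 at 10 µM without array 23 was -0.15 (10 lower, 3 at an unadjusted p under 0.05) and -0.21 within run 2 (11 lower). For fits without array 23, here and below, the share of all genes at that unadjusted threshold is not given. These counts therefore have no background beside them. Of 9 measured other tyrosine and tetrahydrobiopterin genes, 7 were lower at 10 µM (median -0.08) and 5 at 100 µM (median -0.09), with 0 called (0 at 10 µM and 1 at 100 µM at an unadjusted p under 0.05). Without array 23, 6 of these 9 were lower at 10 µM (median -0.02, 1 at an unadjusted p under 0.05). Qdpr, the dihydropteridine reductase, was at -0.19 (SE 0.14) at 10 µM, or -0.27 without array 23, and Gch1, the first enzyme of tetrahydrobiopterin synthesis, at -0.30 (SE 0.15) at 100 µM. Th, tyrosine hydroxylase, whose mean level was below the median probe set, was at 0.23 (SE 0.11) at 100 µM.

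Ddc, the aromatic amino acid decarboxylase, was named after its values were seen. Its flutamide difference differed between runs beyond the spread between arrays. In run 2 it was at 3.77, 3.89 and 4.01 at 10 µM, against 5.77, 5.42 and 5.54 in DMSO, and in run 1 at 4.21, 4.29 and 4.62 at 10 µM, against 4.05 and 4.45 in DMSO. The interaction was -1.81 (SE 0.22, adjusted p = 0.0116 by limma), from -1.68 within run 2 and 0.12 within run 1. Without array 23 it was -1.75 (adjusted p = 0.036 by limma). At 100 µM the interaction was -1.33 (SE 0.24, adjusted p = 0.179). The call at 10 µM ended when DMSO array 10 was left out (value -1.61). It also ended without arrays 15, 23 and 24, those of least weight (value -1.69). Each of these fits leaves a single array in a group within a run. The mean level of Ddc, 4.46, was below the median probe set. As for Hgd, Fah and Kynu, its DMSO arrays of run 2 were the highest of all.

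The remaining lists are set beside the enzymes. Among 6 aromatic and neutral amino acid transporters 4 were lower at each dose, with medians of -0.26 at 10 µM and -0.17 at 100 µM, and Slc3a2, the heavy chain of several amino acid exchangers, was at -0.46 (SE 0.17) at 10 µM, with -0.87 within run 2 and 0.06 within run 1. Slc43a1 and Slc38a4, both amino acid transporters, were at -0.54 (SE 0.24) and -0.23 (SE 0.13) at 100 µM. Of 26 enzymes that break down other amino acids, 18 were lower at 10 µM (median -0.10) and 23 at 100 µM (median -0.19). Hibadh of valine breakdown was at -0.48 (SE 0.18) at 10 µM, and Prodh of proline and Hal of histidine breakdown were at -0.35 (SE 0.13) and -0.25 (SE 0.11) at 100 µM. Limma called 0 of them at either dose, with 1 transporter and 2 enzymes at an unadjusted p under 0.05 at each dose. Without array 23, 5 of the 6 transporters (median -0.19) and 18 of the 26 enzymes (median -0.08) were lower at 10 µM, with 1 transporter and 5 enzymes at an unadjusted p under 0.05.

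Of 12 glucocorticoid receptor and response genes 7 were lower at 10 µM (median -0.06) and 9 at 100 µM (median -0.20), with 0 called (0 and 2 at an unadjusted p under 0.05). Without array 23, 10 of the 12 were lower at 10 µM (median -0.21), with 0 called and 4 at an unadjusted p under 0.05. Fkbp5, a chaperone of the receptor, was at -0.55 (SE 0.25) at 100 µM, and Hsd11b1, which regenerates active glucocorticoid, at -0.18 (SE 0.10) at 10 µM, or -0.26 without array 23, and -0.24 (SE 0.11) at 100 µM. Of 15 measured liver transcription factors 11 were lower at 10 µM (median -0.19) and 12 at 100 µM (median -0.30), with 0 called (5 and 5 at an unadjusted p under 0.05). Without array 23, 12 of the 15 were lower at 10 µM (median -0.27), with 0 called and 7 at an unadjusted p under 0.05. Hnf4a, a master regulator of hepatocyte genes, was at -0.62 (SE 0.20) at 10 µM, with -1.14 within run 2 and 0.02 within run 1. Prox1 and Nr1i2, the PXR receptor, were at -0.71 (SE 0.24) and -0.43 (SE 0.13) at 100 µM. The 10 µM values of the named genes that moved little without array 23 were then -0.69 for Qprt, -0.20 for Kyat3, -0.44 for Slc3a2, -0.41 for Hibadh and -0.56 for Hnf4a.

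**Figure D4:**
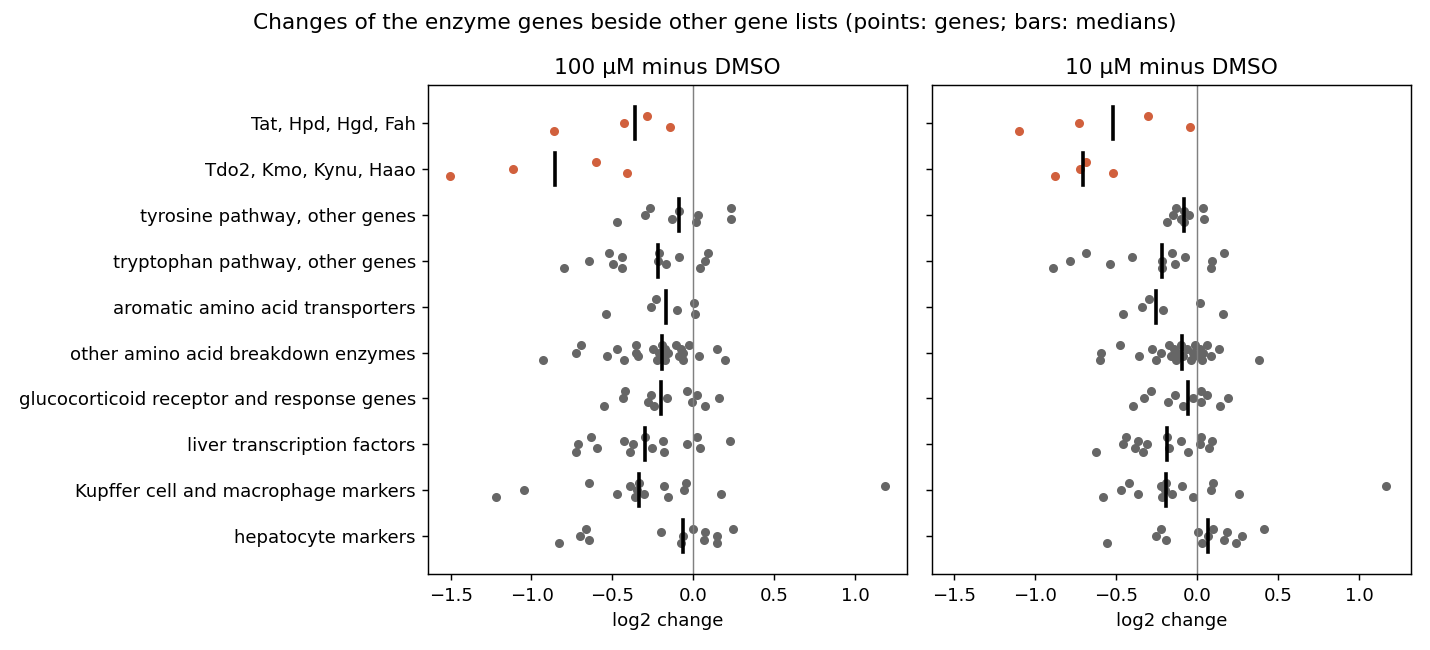
Log2 difference from DMSO (horizontal axis) of each gene (points) at 100 µM (left) and 10 µM (right), grouped by list (vertical axis), with black bars for list medians and the 8 enzyme genes in orange. Tdo2, Kmo, Kynu and Haao lie farthest left as a group, with medians of -0.86 at 100 µM and -0.71 at 10 µM (-0.65 without array 23). The 8 enzyme genes were chosen with earlier results of these arrays known, so this order is a description.

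Kupffer cell markers were lower in 13 of 15 cases at 100 µM (median -0.34) and in 11 of 15 at 10 µM (median -0.19), with 0 called. At 100 µM 13 of 15 were lower within run 2 (median -0.65) and 8 of 15 within run 1 (median -0.04). At 10 µM 8 of 15 were lower within run 2 (median -0.08) and 12 of 15 within run 1 (median -0.18). Without array 23, 13 of 15 were lower at 10 µM (median -0.38), with 0 called. In that fit 8 were at an unadjusted p under 0.05, Cd68 among them with a higher level. The share of all genes at that threshold in that fit is not given. With all arrays 2 markers had an unadjusted p under 0.05 at 100 µM, Cd68 with a higher and Adgre1 with a lower level (1.18, SE 0.42, and -0.64, SE 0.28), and 1 at 10 µM, Cd68 (1.17, SE 0.38, or 0.97 without array 23). These markers were named after their values were seen. Within run 2 Cd68 was at 8.31 to 9.95 on the flutamide arrays, against 7.18, 7.28 and 7.52 in DMSO, and run 1 held 9.60 to 10.50 over all groups. The mean log2 level of the Kupffer markers was 6.05 to 6.93 in DMSO, 5.77 to 7.43 at 10 µM and 5.83 to 6.40 at 100 µM. Clec4f, Adgre1, Csf1r, Ptprc and Aif1 lay below the median probe set. Kynu and Kmo, which macrophages also express, had negative values beside this list at 100 µM, and its part in their values was not tested. On array 23 the mean of this list was highest. Cd68 (9.85), Lyz2 (6.68), Cd14 (9.60), Adgre1 (5.20) and Aif1 (5.93) were not at their highest there. Kmo was at its lowest value on that array, and Kynu (6.25) was within the range of the other 10 µM arrays. A link between these values was not tested. Hepatocyte markers were lower in 8 of 13 cases at 100 µM (median -0.07) and in 4 of 13 at 10 µM (median 0.06), or 6 of 13 without array 23 (median 0.05). Stellate cell markers were lower in 2 of 10 cases at 100 µM and 4 of 10 at 10 µM, endothelial markers in 4 of 5 and 5 of 5, cholangiocyte markers in 1 of 4 and 1 of 4, and lymphocyte markers in 0 of 7 and 4 of 7. Leaving out array 23, the counts at 10 µM were 10 of 10 stellate cell (median -0.02) and 5 of 5 endothelial markers (median -0.24). They were 2 of 4 cholangiocyte (median 0.03) and 5 of 7 lymphocyte markers (median -0.03). In that fit 6 hepatocyte, 3 endothelial and 0 stellate cell markers were at an unadjusted p under 0.05. Limma called 0 of the hepatocyte and these other markers. At an unadjusted p under 0.05 were 4 hepatocyte markers at 100 µM, and 5 hepatocyte markers and 1 endothelial marker at 10 µM. The 5 hepatocyte markers included higher ones, as only 4 of 13 were lower at 10 µM. Of the 6 without array 23, Ttr, Apoa1, Serpina1 and Ahsg were higher and Apob and Cyp2e1 lower. These too were named after their values were seen.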

How the data were processed

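Rat hepatocyte RNA was measured on 15 arrays. The log2 values used were deposited by the authors as a single table. Per the submitters' processing notes RMA, which corrects background, quantile-normalizes and summarises probes, and Partek were used, with versions and settings not given in the sources used here. Array medians were 5.38 to 5.51. No further normalization was applied, and precision is limited by the number of arrays, as there is no read depth. Of 29214 probe sets 15310 had 1 gene symbol, updated by gene identifier through RefSeq GRCr8 (15279 matched), and 13904 without a single gene were left out. For the 527 genes with several probe sets, the one of highest mean was used, which left 14506 genes. The table held 0 columns of other samples.

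Groups were compared with limma 3.58.1 in R 4.3.3 (lmFit, eBayes) on all 15 arrays with the number run as a 2-level block (11 residual degrees of freedom), and interactions with 1 mean per group and run (9). Calls were made at an adjusted p of 0.05 (Benjamini-Hochberg, 14506 genes). The fits were tested on simulated data. Number runs pair no arrays. The 8 genes, the gene lists and the tests were chosen with earlier results of these data known. Named were the 8 genes, from each pathway list the 2 genes of lowest p at 100 µM and the 1 at 10 µM, and for each of the 8 the 2 genes of highest correlation. Ddc was added after its values were seen.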

Additional observations from a re-analysis of the deposited data

Results flagged for a closer look

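The 10 µM difference of Ddc, run 2 minus run 1, was -1.81 (adjusted p = 0.0116 by limma), which stood out because the interaction passed the test across all genes, and its values are given above. Kmo at 100 µM lay above its own run's DMSO mean on both arrays of run 1 (8.36 and 8.25, against 8.12) and below it on both arrays of run 2 (7.94 and 7.99, against 8.81). The differences in the runs were thus of opposite sign. In run 1, however, both arrays lay between the 2 DMSO arrays (8.49 and 7.75), so a rise there is not shown. The difference between its runs was -1.02, with an adjusted p of 0.893 in the limma interaction. Of 24 sets of values of 1 gene in 1 group, 0 held an array far enough from the rest to stand out, where chance gives about 1 in 20.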

How the results depend on the processing

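None of the 8 enzyme genes was called in any alternative tried. For 10 µM minus DMSO, where 0 genes were called, 1 was with array quality weights, 1 with quantile normalization repeated, 7 within run 2 alone, 24 within run 2 without 10 µM array 23, and 0 to 1 when single arrays were left out (1 without DMSO array 11 or 22). For 100 µM minus DMSO (0 genes), 1 was called within run 2 alone and 10 within run 2 without array 23. The median of the 8 genes was -1.06 within run 2 (-0.78 without array 23) and -0.26 within run 1 at 10 µM (-0.81 to -0.55 leaving out single arrays), and -0.99 within run 2 and -0.0912 within run 1 at 100 µM (-0.71 to -0.39). For run 2 minus run 1 (79 genes), 191 were called with array weights, 16 in DMSO alone and 37 (without DMSO array 11) to 129 (without 10 µM array 23) leaving out single arrays. For the 10 µM interaction (6 genes), 17 were called with array weights, 3 with repeated quantile normalization, 2 with dim genes left out, 3 without arrays 15, 23 and 24, and 2 (without DMSO array 10) to 116 (without 10 µM array 25) leaving out single arrays. For the 100 µM interaction (1 gene), 4 were called with array weights, 2 with repeated quantile normalization, 5 without arrays 15, 23 and 24, and 0 (without DMSO array 10) to 22 (without 100 µM array 16). The cause of these changes was not tested. Leaving out arrays 15, 23 and 24, or array 23 within run 2, was chosen after seeing the data. The signs of 6 of 8 genes at 10 µM and 6 of 8 at 100 µM were kept in all 26 alternatives, the exceptions being Hpd and Kmo at 10 µM and Kmo and Haao at 100 µM. No paired analysis was possible because no title number is shared between groups.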
